A study of Mus musculus with 10 samples.

Results

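The control-column wells are wells of a single plate column set apart from the picked cells on each of 10 plates of single-cell RNA-seq from the paraventricular hypothalamus (PVH) of the mouse. They were taken by position, as the wells in rows A, B, E and F of the control column, which gave 4 wells per plate and 40 of the 960 wells in all. They were compared on the same plate with the 664 cells that the authors' table of 706 kept cells placed in clusters other than 5, 6 and 11, between 42 and 82 cells per plate, which are called PVH cells here. None of the control-column wells is in that table. What was put in these wells is not given in the sources used here, and no name is given to their RNA.

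All plates came from a single condition. The mice were male, older than 7 weeks, and carried *Agrp-IRES-Cre* and the *Ai9* reporter, in which Cre turns on the red fluorescent protein tdTomato in cells that have expressed the hunger neuropeptide *Agrp*. The study's methods use the labelled AGRP axons to find the borders of the PVH, whereas the sample labels speak of labelled neurons. Brain slices were kept in artificial cerebrospinal fluid with TTX, APV and DNQX, which block sodium channels and glutamate receptors, were digested with pronase, and cells were picked by hand. Each well received its own barcode and spike-in RNAs (ERCC) in lysis buffer, unique molecular identifiers (UMIs) were counted, and the cDNA of a plate was pooled before it was amplified, so each plate is 1 library. The plates belong to 3 batches in the authors' table, named Q (4 plates), AL (2 plates) and JM (4 plates). Which mice were picked onto which plate is not given in the sources used here, so the tests over plates measure the spread between libraries.

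Neurons of the PVH make peptide hormones and transmitters, among them oxytocin, vasopressin and corticotropin-releasing hormone, and pack them with prohormone convertases and granins into secretory granules. The transcription factor SIM1 is needed for these neurons to form. Control wells on a plate serve to follow a reaction in RNA that is not the cell of interest, and the wells of a pooled library are told apart only by their barcodes. Genes that neurons do not use can therefore be read against their level in the picked cells, and neuropeptide genes, which are abundant in those cells, against their level in the control wells.

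The barcodes are shown because every assignment of a read to a control well rests on them. The list of barcodes holds 384 sequences of 8 bases, any of which differs from any other at 3 or more positions. For 36 of the 40 control wells, the nearest barcode of a PVH cell on the same plate differed at 3 positions, and for 4 wells at 4 positions. Where several cells were equally near, the first by well name was taken for the pair. On plate Q5 the 4 control wells and the PVH cell paired with each carried these barcodes, written 5′ to 3′ with the differing bases in capitals.
Q5 control well A05: CaCggAgt
Q5 cell A03: AaTggCgt
Q5 control well B05: TTagtCga
Q5 cell B03: CGagtAga
Q5 control well E05: AacgaAAc
Q5 cell A06: CacgaTGc
Q5 control well F05: attTcCgC
Q5 cell A04: attGcAgT
*Igkc*, the constant region of the immunoglobulin kappa light chain, had 2000, 2130, 2201 and 1853 UMIs in these control wells and 0 UMIs in each of the 4 cells. *Oxt*, the oxytocin gene, had 90, 89, 97 and 115 UMIs in the control wells and 228, 92, 115 and 95 UMIs in the cells. Over all 40 pairs, *Igkc* had 322 to 4606 UMIs in the control wells and 0 to 2 UMIs in the cells, so *Igkc* separated every pair. *Oxt* had 0 to 115 UMIs in the control wells and 1 to 41348 UMIs in the cells, and these ranges overlapped.

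*Igkc*, *Lgals1* and *Spp1*, the markers of the control wells, were present in every one of the 40 wells. *Igkc* (ENSMUSG00000076609) lies at chr6:70726435-70726966 on the plus strand of GRCm38 in the M21 annotation, as an immunoglobulin constant gene. *Lgals1* (ENSMUSG00000068220), which encodes the lectin galectin-1, lies at chr15:78926725-78930465, and *Spp1* (ENSMUSG00000029304), which encodes the secreted protein osteopontin, at chr5:104435118-104441050, both protein coding and on the plus strand. The reads were counted per gene, so no value here belongs to a single exon or untranslated region.

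*Igkc* ranged from 6717 to 18831 UMIs per 1000000 gene UMIs of a well (CPM) over the 40 wells with a median of 11760.1 CPM, *Lgals1* from 2075 to 11713 CPM with a median of 6293 CPM, and *Spp1* from 2675 to 10477 CPM with a median of 6224 CPM. Summed per plate, the control wells held 11840.2 ± 2201 CPM of *Igkc* (SD, n = 10 plates), between 9290.1 and 16313 CPM with a median of 11384 CPM, and the PVH cells 2.88 ± 3.18 CPM, at most 9.68 CPM. *Lgals1* stood at 6378 ± 2637 CPM, between 2975 and 10248 CPM, in the control wells and at 5.003 ± 2.94 CPM in the PVH cells. *Spp1* stood at 6008 ± 1569 CPM, between 3742 and 8311 CPM, in the control wells and at 0.745 ± 0.864 CPM in the PVH cells. The lowest control plate was far above the highest PVH plate for each of the 3 genes, and the groups did not overlap. In edgeR's quasi-likelihood test with plate as a block and Benjamini-Hochberg adjustment, the log2 difference was 12.11 ± 0.67 (SE, n = 10 plates; adjusted p = 1.13e-07) for *Igkc*, 10.11 ± 0.61 (adjusted p = 2.25e-07) for *Lgals1* and 12.90 ± 0.32 (adjusted p = 1.21e-14) for *Spp1*.

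**Figure D1:**
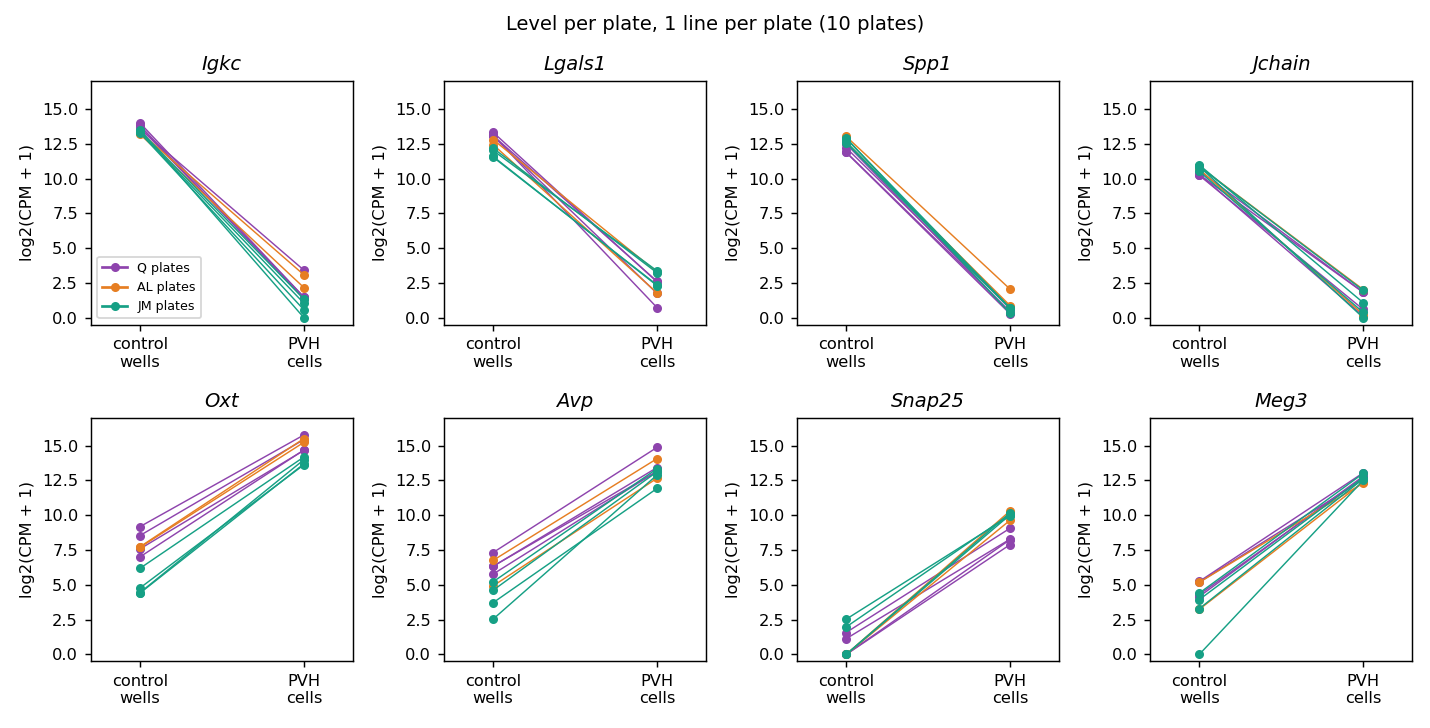
Level of 8 genes as log2(CPM + 1) in the summed control wells and in the summed PVH cells, with 1 line per plate for 10 plates, coloured by batch. *Igkc*, *Lgals1*, *Spp1* and *Jchain* stood higher in the control wells on all 10 plates, and *Oxt*, *Avp*, *Snap25* and *Meg3* lower on all 10.

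Some PVH cells held UMIs of the markers, at low counts. *Igkc* was seen in 153 of 664 PVH cells (23.0%; 95% Clopper-Pearson interval 19.9 to 26.4%), *Lgals1* in 128 cells (19.3%; 16.3 to 22.5%) and *Spp1* in 50 cells (7.53%; 5.64 to 9.81%), and these intervals cover counting error only. On the Q plates, where wells held more UMIs, *Igkc* was seen in 38.4% of 307 PVH cells, against 9.80% of 357 cells on the AL and JM plates. A single cell held 193 *Igkc* UMIs, and 3 cells held more than 10. By plate, a mean PVH cell held between 0 and 0.136% of the *Igkc* UMIs of a mean control well, between 0.00838 and 0.350% of its *Lgals1* UMIs and between 0.00455 and 0.0736% of its *Spp1* UMIs. Rows C, D, G and H of the same columns, whose wells match the background subtraction in the authors' totals, held 10 UMIs of the 3 genes in 37 wells.

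A control well held from 35402 to 312891 gene UMIs, with a median of 84529.5, and from 3747 to 5676 genes with at least 1 UMI. A PVH cell held from 50646 to 1078101 gene UMIs, with a median of 130107. Compared as medians per plate, gene UMIs were lower in the control wells on 10 of 10 plates, 0.740-fold those of the PVH cells (log2 difference −0.43 ± 0.29, SD, n = 10 plates; exact two-sided sign-flip permutation test, p = 0.00195, adjusted p = 0.00195). That p-value is the smallest that 10 plates allow, and each of the 5 measures compared reached it. ERCC UMIs were higher in the control wells on all 10 plates, by 1.26-fold (0.33 ± 0.25 on the log2 scale). Gene UMIs per ERCC UMI were lower on all 10 plates, at 0.551-fold (−0.86 ± 0.35). With every well thinned to 20000 UMIs, plate medians were 2818 to 3718.5 detected genes in control wells and 3013.5 to 4207 in PVH cells, with 409 ± 181 fewer genes in the control wells. Unthinned, the plate medians were 3916.5 to 5079 genes in control wells and 4434 to 5928 in PVH cells. Protein-coding mitochondrial transcripts made up 1.70 to 2.22% of UMIs in control wells and 1.96 to 2.60% in PVH cells, lower on all 10 plates by 0.23 ± 0.19 percentage points. That share leaves out the mitochondrial ribosomal RNAs *mt-Rnr1* and *mt-Rnr2*, whose CPM was higher in the control wells on every plate. For *mt-Rnr1* it was 13249 against 5179 CPM on Q5 and 1219 against 1004 CPM on AL6. For *mt-Rnr2* it was 17275 against 8909 CPM and 4607 against 4418 CPM. The direction of these 5 measures was the same on Q plates as on the others, and no test of the difference between these plates passed (exact permutation test over 210 splits, adjusted p = 0.310 to 0.843). For ERCC UMIs the call was lost in rows A and B alone, where the log2 difference was 0.21 (exact permutation test, adjusted p = 0.127).

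**Figure D2:**
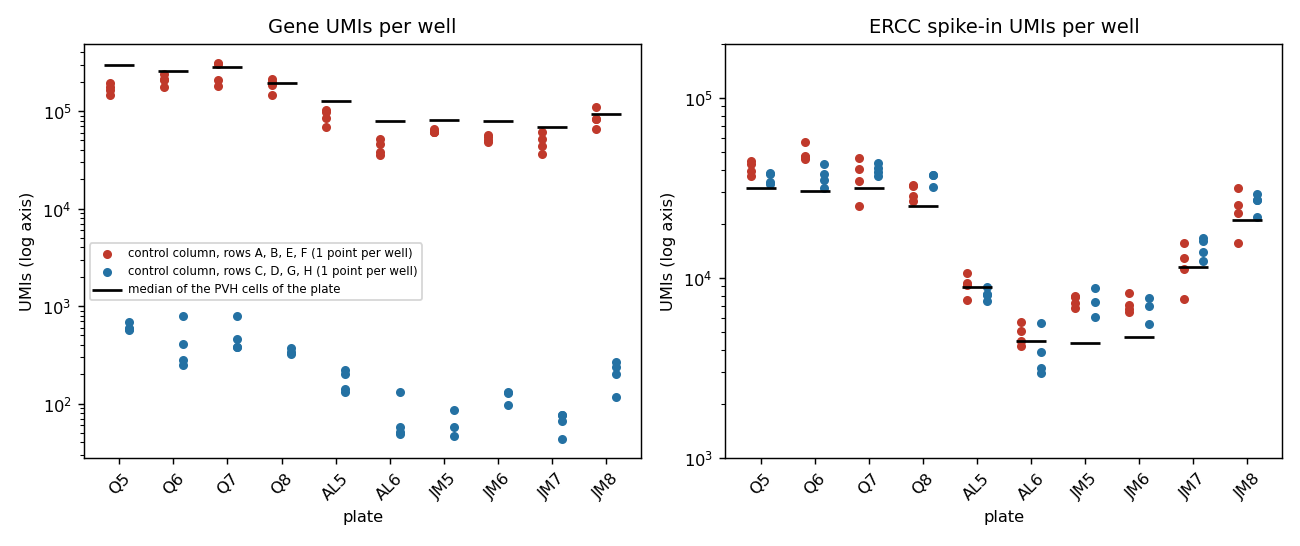
Gene UMIs (left) and ERCC UMIs (right) per well on log axes for each of the 10 plates, with a point for each well of the control column in rows A, B, E and F and in rows C, D, G and H, and a bar at the median of the PVH cells. The control wells held between 35402 and 312891 gene UMIs, with plate medians below those of the PVH cells on every plate, and the other rows held far fewer gene UMIs at a like level of ERCC UMIs.

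The wells in the other rows of the same columns were the background measured in the same way. Of these 40 wells, 3 held neither gene nor ERCC UMIs and were left out. Plate medians of gene UMIs were 41892 to 257704.5 in the control wells and 54 to 584.5 in the other rows, a ratio of 553-fold that was in the same direction on all 10 plates (9.11 ± 0.53 on the log2 scale; exact sign-flip permutation test, adjusted p = 0.00391). ERCC UMIs, added to both alike, were higher in the control wells on 5 plates and lower on 5, with a log2 difference of 0.04 ± 0.26 that ran from −0.31 to 0.44 (exact permutation test, adjusted p = 0.645). UMIs of *Igkc*, *Lgals1* and *Spp1* together were higher in the control wells on all 10 plates (11.08 ± 0.99 on the log2 scale of UMIs + 1; exact permutation test, adjusted p = 0.00391). The other rows held 0 to 3 UMIs of these genes per plate. The size of this difference thus rests on the marker UMIs of the control wells and the added 1, and it is not a measured fold.

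Depth varied among the control wells of a plate. The mean gene UMIs of the wells in rows E and F were 0.978 to 1.58 times those in rows A and B, with a median ratio of 1.19, and above 1 on 8 plates. For ERCC UMIs this ratio was 0.911 to 1.51, and for gene UMIs per ERCC UMI it was 0.817 to 1.12. As a description of likeness, control wells of a plate thinned to 20000 UMIs had a Pearson correlation of log2(CPM + 1) across 10124 genes of 0.370 to 0.459, with a median of 0.418 over 60 pairs. The median was 0.412 over 208 pairs from different plates of a batch and 0.401 over 512 pairs from different batches. Cells of cluster 1 of the same plate had a median of 0.444 over 3094 pairs, all PVH cells of the same plate 0.406, and pairs of a control well and a PVH cell of the same plate 0.242, with a range of 0.0583 to 0.317. The wells of a pair share a library or depth, and genes are not independent replicates.

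Across all genes, 1027 of 10124 tested (10.1%) were higher in the control wells and 4268 (42.2%) lower, at an adjusted p under 0.05 in edgeR's quasi-likelihood test. The median gene was lower by −1.43 on the log2 scale after TMM scaling, −1.08 with library size alone and −2.01 when scaled to ERCC, so the level of a list is given beside this median. The sums are of unequal size, with 4795602 UMIs in the 40 control wells and 119264399 in the 664 PVH cells, and 481 of the tested genes had 0 UMIs in the control wells against 9 in the PVH cells. With 4 cells drawn per plate in place of all, 815 genes were higher and 1061 lower of 5277 tested, and the share of calls that were higher moved from 19.4 to 43.4%. On the 5276 genes tested both ways, 1887 were lower against all cells and 1061 against 4 cells per plate, with 1060 in both, and 772 and 814 were higher, with 718 in both. The lower count thus fell with fewer cells summed while the higher count was close, and the named genes below are given by their levels first. A gene absent or nearly absent from one side entered the test only through the other, so the counts for lists of tested genes are descriptions.

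The genes with the largest fitted differences belonged to several functional classes. *Krt8*, a keratin of simple epithelia, had 342 ± 125 CPM in the control wells (149 to 500 CPM) and 1 UMI in all PVH cells. *Rac2*, a GTPase of blood cells, had 251 ± 135 CPM (47.2 to 451 CPM) and 0 UMIs in the PVH cells, which makes it at least 8008-fold higher by a floor of 3 counts over the group. *Il1rl1*, the receptor for interleukin 33, had 314 ± 103 CPM and *Slpi*, a secreted protease inhibitor, 208 ± 139 CPM, with 1 UMI each in the PVH cells. Together with *Spp1* these genes were higher on 10 of 10 plates. The 5 genes with the largest differences in the other direction had 0 UMIs in all 40 control wells. *Dner*, a ligand of Notch found on neurons, had 210 ± 78.7 CPM in the PVH cells, *Cntnap2*, an adhesion protein of axons, 146 ± 33.7 CPM, *Pdyn*, the dynorphin precursor, 201 ± 91.0 CPM, *Slc17a6*, the vesicular glutamate transporter VGLUT2, 162 ± 65.8 CPM, and *Dcaf12l1* 143 ± 43.8 CPM. By the same floor they were at least 262-, 263-, 239-, 205- and 190-fold lower in the control wells.

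Among genes of B cells and plasma cells, 4 of 12 passed the filter on low counts. All 4 were higher in the control wells, beside 10.1% of all genes, with a median log2 difference of 10.49 beside −1.43 over all genes. Besides *Igkc*, *Jchain*, which joins secreted antibody molecules, stood at 1588 ± 299.6 CPM against 1.33 CPM (log2 difference 10.28 ± 0.57), and *Mzb1*, a chaperone of antibody secretion, at 163 ± 87.9 CPM against 0.164 CPM (10.70 ± 0.94). *Ebf1*, a transcription factor of the B lineage, was higher on 8 plates, at 22.1 CPM against 4.44 CPM (2.37 ± 0.84), a call that was lost with ERCC scaling (1.87, edgeR adjusted p = 0.0545), on the Q plates alone (0.58, adjusted p = 0.799), and without any 1 of plates AL6, JM5, JM7 and JM8 (2.00 to 2.20). *Cd79b* had 317 UMIs in 14 control wells and *Ms4a1*, which encodes CD20, 248 UMIs in 12, and neither passed the filter. *Ighm*, *Ighg1* and *Cd79a*, also defining genes of B cells, had 0 UMIs in the control wells, and *Ighg1* had 0 in the PVH cells as well. Without a filter 11 of the 12 genes were tested, with 6 higher and 1 lower. On the AL and JM plates alone 6 were tested, with 5 higher and 1 lower.

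Immunoglobulin genes were looked at further after their values had been seen. Of 2230 UMIs over the kappa variable genes in the control wells, 2063 (92.5%) came from *Igkv6-17*, and its share was 86.8 to 96.0% on the 10 plates. *Igkv6-17* was seen in 40 of 40 wells, while only 12 of 160 kappa variable genes in the table had a UMI there. Among heavy chain constant genes, *Ighg2b* took 7592 of 7729 UMIs (98.2%), between 95.01 and 99.4% by plate. The 183 heavy chain variable genes together had 1 UMI, and the lambda constant genes 399 UMIs. In all PVH cells the kappa variable genes had 21 UMIs. The heavy chain constant genes had 1404 UMIs there, with no more than 31 of *Ighg2b* on any plate, so most of these UMIs came from other members of the family. Near-identical members of these families can share reads, so the split between them is uncertain.

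Of 12 T cell genes, 3 were tested, and 2 were higher, beside 10.1% of all genes. *Trbc2*, a constant region of the T cell receptor beta chain, had 181 ± 102 CPM against 1.38 CPM (log2 difference 8.09 ± 0.91), and *Lck*, a kinase of T cell receptor signalling, 58.6 CPM against 10.04 CPM (2.20 ± 0.82), higher on 8 plates. The *Lck* call was lost with ERCC scaling (1.63, edgeR adjusted p = 0.0974), on the Q plates alone (0.99, adjusted p = 0.764), in rows A and B (0.29) and in rows E and F (−0.02), and without any 1 plate other than Q6 or Q7 (1.88 to 2.23). *Trac* did not pass (0.94, edgeR adjusted p = 0.25). *Cd3g* had 267 UMIs in 12 control wells and 0 in the PVH cells, and *Cd3d*, *Cd247* and *Cd8a* had 0 in the control wells.

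All 5 tested macrophage genes of 12 were higher, beside 10.1% of all genes, with a median of 9.93. *Lgals3*, which encodes galectin-3, was the most even of them, at 1880 ± 192 CPM with a range of 1609 to 2182 CPM over plates, against 2.53 CPM in the PVH cells (log2 difference 9.59 ± 0.47). *Fcer1g*, a chain shared by Fc receptors, had 102 ± 70.7 CPM against 1 UMI, *Cd14*, the receptor for bacterial lipopolysaccharide, 145 ± 91.4 CPM (9.93), and *Lyz2*, a lysozyme, 109 ± 80.6 CPM (5.07), a call lost on the Q plates alone (1.99, edgeR adjusted p = 0.509) and in rows A and B (3.02, adjusted p = 0.143). *Marco*, a scavenger receptor, was at 0 in the control wells.

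Fibroblast and matrix genes were higher in all 11 tested of 14, beside 10.1% of all genes, with a median of 10.36. *Col3a1*, a fibrillar collagen, stood at 688 ± 197 CPM against 0.0757 CPM (log2 difference 12.24 ± 0.36), *Col1a2* at 894 ± 180 CPM (11.26 ± 0.59) and *Fn1*, fibronectin, at 762 ± 186 CPM (9.89 ± 0.94). *Dcn*, the proteoglycan decorin, had 286 ± 194 CPM and *Col1a1* 154 ± 74.6 CPM, with 3 UMIs each in the PVH cells. *Vim*, the intermediate filament vimentin, was present in both, at 2540 ± 649 CPM against 42.6 ± 13.2 CPM (5.59 ± 0.14). Collagen and antibody messages were thus abundant in the same wells.

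Both tested epithelial genes of 12, *Krt8* and *Krt18*, were higher, beside 10.1% of all genes. *Krt18*, the keratin that pairs with *Krt8*, stood at 633 ± 212 CPM against 2.29 CPM (log2 difference 8.87 ± 0.90), while *Krt5*, *Cdh1* and *Cldn4* had 0 UMIs in the control wells. *Hmga2*, an architectural chromatin protein of embryonic and transformed cells, was the only tested gene of 12 embryonic and pluripotency genes and was higher, at 151 ± 53.8 CPM against 5 UMIs in the PVH cells (11.26 ± 0.69). The pluripotency factors *Pou5f1* and *Nanog* were among 8 of the 12 that had 0 UMIs.

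Most markers of several organs had no UMI in the control wells. Of 12 hepatocyte genes, 11 had 0 UMIs there, among them *Alb* and *Apoa1*. The same held for 7 of 10 kidney tubule genes, 10 of 12 testis genes, 6 of 6 lung epithelial genes and 5 of 6 erythroid genes. None of these 4 lists had a gene that passed the filter. In the PVH cells 5 hepatocyte, 6 kidney tubule, 7 testis, 3 lung epithelial and 1 erythroid gene also had 0 UMIs. Of all 48397 genes, 26721 had a UMI in the control wells or the PVH cells, so a count of 0 is common. Without a filter, 2 kidney tubule genes, *Aqp1* (36 UMIs in 8 control wells) and *Pax8* (15 UMIs in 3), and 1 erythroid gene, *Hba-a1* (25 UMIs in 5), were higher in the control wells, and 2 testis genes were lower. *Apoa2*, a lipoprotein component and the tested hepatocyte gene, had 1 UMI in the control wells and 2159 in the PVH cells. Of 12 skeletal muscle genes, *Acta1*, an actin of muscle, was lower (−4.48, a call lost on Q plates alone and on AL and JM plates alone) and *Myl4* did not pass (0.28, edgeR adjusted p = 0.88). Of 8 endothelial genes, 5 were at 0, and the tested *Egfl7*, a secreted factor of vessels, was lower at 5.96 CPM against 132 ± 27.7 CPM (−5.48 ± 0.68).

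Glial lists were split. Among 8 astrocyte genes, 6 were at 0 in the control wells, including *Aqp4* and *Gfap*, while *Gja1*, a gap junction protein, was higher at 155 ± 117 CPM against 0.562 CPM (log2 difference 9.24 ± 1.04), and *Slc1a2*, a glutamate transporter, was at 0 and at least 20.5-fold lower. Among 9 genes of the oligodendrocyte lineage, 6 were at 0, *Pdgfra*, a growth factor receptor of progenitors and of fibroblasts, was higher (190 ± 78.4 CPM, 11.12 ± 0.72), and *Mbp*, the myelin basic protein, was lower (−3.74 ± 1.46, edgeR adjusted p = 0.0407) although 3 plates had the higher level in the control wells. The *Mbp* call was lost with library size alone (−3.40, edgeR adjusted p = 0.0680), with 4 cells per plate (−3.27), on the AL and JM plates (−0.96, adjusted p = 0.538), and without any 1 of the 4 Q plates, JM7 or JM8 (−3.47 to −3.07). Of 6 microglia genes, *Ctss*, a lysosomal protease, was higher with 65.6 ± 49.0 CPM against 3 UMIs, and *P2ry12* and *Cx3cr1* were at 0.

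**Figure D3:**
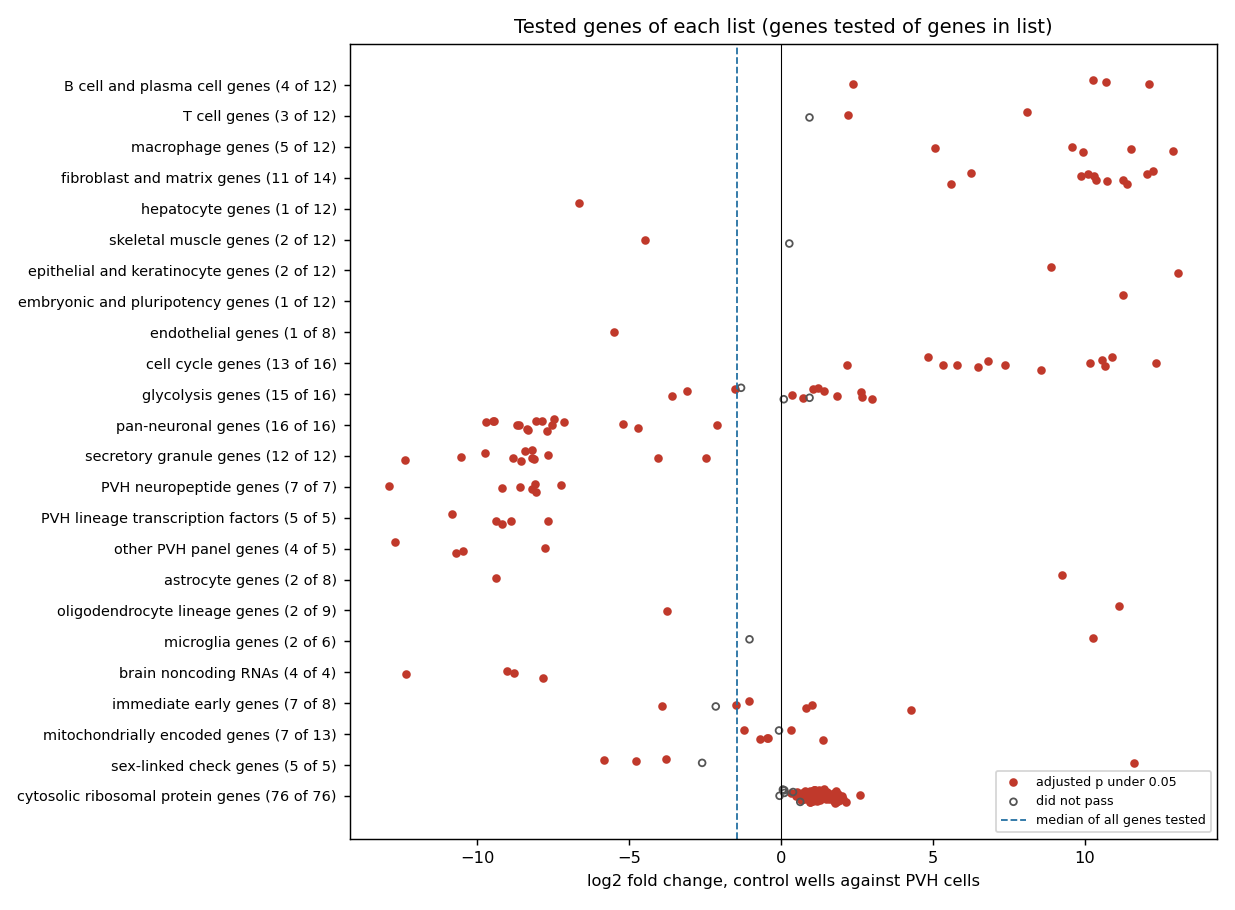
Log2 fold change of each tested gene, control wells against PVH cells, by gene list, with the genes tested of those in the list beside its name, filled points for an adjusted p under 0.05, open points for the rest, and a dashed line at the median of all 10124 tested genes, −1.43. Matrix, macrophage and cell cycle genes lay to the right of 0 and neuronal, granule and neuropeptide genes to the left, where genes with 0 UMIs on one side are drawn at a fitted value that is no bound.

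Cell cycle genes were higher in 13 of 13 tested (16 in the list), beside 10.1% of all genes, with a median of 7.37. *Top2a*, a topoisomerase of dividing cells, stood at 312 ± 128 CPM against 0.0185 CPM (log2 difference 12.35 ± 0.49) and was seen in 40 of 40 control wells and 4 of 664 PVH cells. *Cdk1*, the kinase of mitosis, stood at 284 ± 86.4 CPM (10.89 ± 0.71), and *Ccnb1*, its cyclin, at 152 ± 110 CPM against 3 UMIs. *Pcna*, a clamp of DNA polymerase that is also used in repair, was present in both groups, at 111 CPM against 17.6 CPM (2.19 ± 0.45), a call lost on the Q plates alone (1.33, edgeR adjusted p = 0.405) and in rows E and F (1.53, adjusted p = 0.114).

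Cytosolic ribosomal protein genes were higher in 70 of 76, beside 10.1% of all genes, with a median of 1.23, and 6 did not pass. Their summed share of UMIs was 9.26 to 15.0% in the control wells and 2.77 to 5.20% in the PVH cells, and these ranges did not overlap. *Rplp0*, a protein of the ribosomal stalk, stood at 5339 ± 1150 CPM against 691 ± 70.9 CPM (log2 difference 2.60 ± 0.09), *Rpsa* at 3848 ± 672 CPM (2.13 ± 0.12) and *Rpl22* at 472 ± 202 CPM (2.04 ± 0.19). With scaling to ERCC, which asks for the amount per well, 53 of the 76 were higher and 3 lower, with a median of 0.65. Copies of these genes elsewhere in the genome can take or add reads, so single values are uncertain. Outside the lists, and chosen after the values were seen, the ferritin chains *Fth1*, at 14192 ± 2823 CPM against 2014 CPM (2.47 ± 0.09), and *Ftl1*, at 8569 ± 1636 CPM against 904 CPM (2.93 ± 0.11), were among the most abundant messages of the control wells.

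Glycolysis genes went both ways, beside 10.1% of all genes higher and 42.2% lower. Of 15 tested (16 in the list, median 0.94), 9 were higher, 3 lower and 3 did not pass. With ERCC scaling, 7 were higher and 5 lower. The call of *Gpi1* (0.35) was lost on the Q plates alone (0.17, edgeR adjusted p = 0.650), and with ERCC scaling its sign turned (−0.23, adjusted p = 0.163). It was also lost with DESeq2 size factors (0.26), in the DESeq2 test (0.26), without a filter (0.12) and without plate as a block (0.38). The same held for this call in rows A and B (0.06), in rows E and F (0.21) and without any 1 of plates Q8, JM5 and JM6 (0.31 to 0.32). That of *Pfkm* (−1.50) was lost with library size alone (−1.13, edgeR adjusted p = 0.144) and on the Q plates alone (−1.05, adjusted p = 0.509). It was also lost without any 1 of plates Q7, AL5, AL6, JM5, JM7 and JM8 (−1.58 to −1.11). *Slc2a1*, the glucose transporter GLUT1, stood at 148 ± 72.3 CPM against 13.8 CPM (log2 difference 3.00 ± 0.48), and *Ldha*, the lactate dehydrogenase chain of glycolytic tissues, at 4165 ± 385 CPM against 541 CPM (2.64 ± 0.12). *Eno2*, the neuronal enolase, was lower at 64.3 ± 38.5 CPM against 628 ± 334 CPM (−3.57 ± 0.42), and *Ldhb* was lower at 113 ± 58.2 CPM against 693 CPM (−3.08 ± 0.24).

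Neuropeptide genes of the PVH were lower in 7 of 7, beside 42.2% of all genes, with a median of −8.20, or −8.10 with *Pdyn* at its bound. *Oxt* had 182 ± 178 CPM in the control wells, between 20.2 and 577 CPM, and 29775 ± 15424 CPM in the PVH cells, between 12602 and 55682 CPM (log2 difference −8.10 ± 0.36; edgeR adjusted p = 1.56e-08). *Avp*, the vasopressin gene, had 58.3 ± 48.1 CPM against 11334 ± 7379 CPM (−8.05 ± 0.26; edgeR adjusted p = 3.53e-12). *Sst*, somatostatin, had 9.36 ± 12.1 CPM against 1029 ± 943 CPM (−7.23 ± 0.32; edgeR adjusted p = 1.05e-11), and the groups overlapped because plate AL6 had 0.349 CPM in its PVH cells. The other peptides were at or near 0 in the control wells. *Crh*, corticotropin-releasing hormone, had 3 UMIs and was 217-fold lower as a ratio of pooled CPM (95% counting interval 74.2 to 1052), *Trh*, thyrotropin-releasing hormone, had 2 UMIs (604-fold; 167 to 4990), and *Penk*, the enkephalin precursor, had 2 UMIs (305-fold; 84.3 to 2516).

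*Oxt* and *Avp* were therefore the neuropeptide genes seen in most control wells, 36 and 33 of 40. *Oxt* had 18 to 115 UMIs per control well on the Q plates, 5 to 24 on the AL plates and 0 to 7 on the JM plates. Its mean per control well was 0.0786 to 0.641% of its mean per PVH cell of the same plate, with a median of 0.308% over plates. In the wells of the other rows, which held 10 UMIs of the control markers in all, the share was 0 to 0.436%, with a median of 0.241%. For *Avp* these shares were 0.0406 to 0.551% in the control wells and 0.0309 to 0.470% in the other rows. The UMIs of the 7 genes together were 1.52-fold higher in the control wells than in the other rows (log2 difference of UMIs + 1, 0.61 ± 0.82), higher on 7 of 10 plates, which did not pass (exact permutation test, p = 0.0527, adjusted p = 0.0703). With the 3 wells without UMIs kept as background, an alternative chosen after the data were seen, the difference was 0.71 and passed (exact permutation test, adjusted p = 0.0208), and it also passed without plate JM5 (0.73; adjusted p = 0.0417) and without plate JM6 (0.72; adjusted p = 0.0469). Where the neuropeptide UMIs of the control wells came from was not tested.

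**Figure D4:**
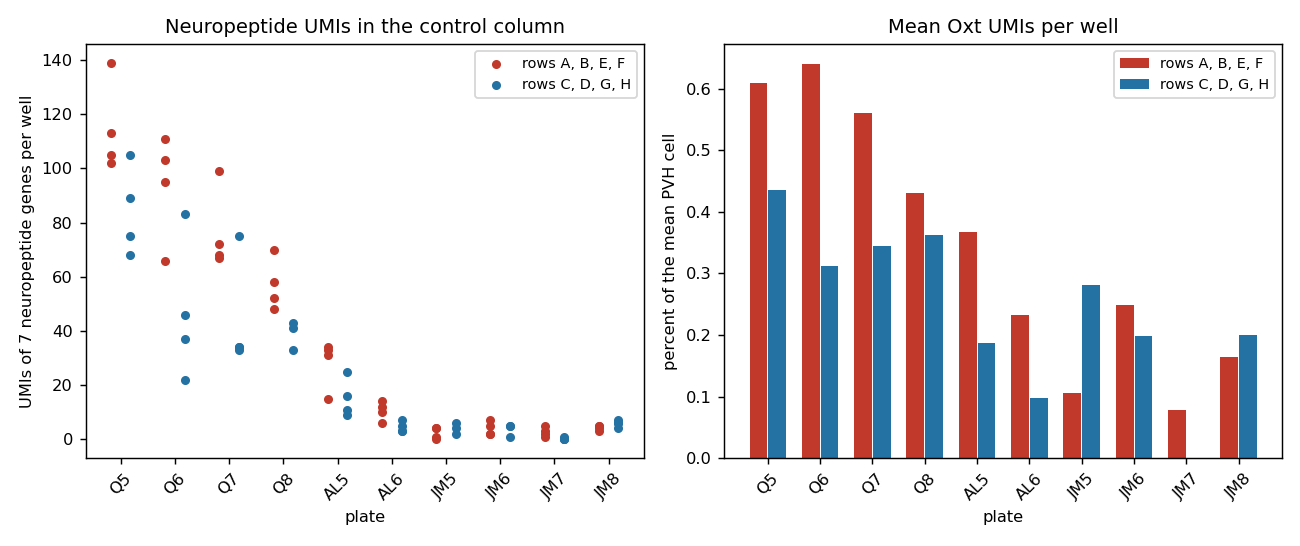
Left, UMIs of the 7 neuropeptide genes in each well of the control column by plate. Right, mean *Oxt* UMIs per well as a percent of the mean PVH cell of the same plate. Wells in rows A, B, E and F are shown beside those in rows C, D, G and H, and the *Oxt* bars reach 0.641% and 0.436%.

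Transcription factors of the PVH lineage were lower in 5 of 5, beside 42.2% of all genes, with a median of −9.18, or −8.88 with *Nhlh2* at its bound. *Sim1* had 1 UMI in the control wells against 8628 in the PVH cells, 347-fold lower (62.3 to 13703). *Otp*, a homeobox factor that acts beside SIM1, had 0.967 CPM against 746 ± 379 CPM (log2 difference −9.38 ± 0.39), and *Nhlh2* had 0 UMIs, at least 55.5-fold lower. The other genes used to label PVH neurons in the study were also lower in 4 of 4 tested. *Slc17a6*, *Gad2*, which makes GABA, and *Ntng1*, an adhesion protein, had 0 UMIs and were at least 205-, 42.4- and 54.9-fold lower, *Reln*, the matrix protein reelin, had 1 UMI, and *Npy1r*, a receptor for neuropeptide Y, had 0 UMIs and was at least 20.1-fold lower without passing the filter.

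Pan-neuronal genes were lower in 16 of 16, with a median of −7.96, beside 42.2% of all genes lower. *Thy1* was the least reduced (−2.11), a call lost with library size alone (−1.75, edgeR adjusted p = 0.0849) and on the Q plates alone (−0.49, adjusted p = 0.771). It was also lost without plate as a block (−0.99) and without any 1 of plates Q5, AL5, AL6, JM5, JM6 and JM8 (−2.09 to −1.82). *Snap25*, a protein of synaptic vesicle fusion, had 1.09 ± 1.66 CPM against 773 ± 393 CPM (log2 difference −9.46 ± 0.38). *Map2*, which binds dendritic microtubules, had 2 UMIs and *Syt1*, the calcium sensor of release, 3 UMIs in the 40 wells. Genes of secretory granules were lower in 12 of 12, with a median of −8.31, or −8.19 with *Pcsk2* at its bound. *Chgb*, a granin, had 4 UMIs against 517 ± 95.7 CPM (−9.73 ± 0.43), *Scg3* had 1 UMI, and *Pcsk2*, a prohormone convertase, had 0 and was at least 166-fold lower. *Cpe*, a carboxypeptidase also made outside neurons, was the least reduced, with 261 ± 134 CPM against 1089 ± 321 CPM (−2.46 ± 0.21). The noncoding RNAs of brain were lower in 4 of 4. *Meg3* fell from 6553 ± 1121 CPM in the PVH cells to 19.5 ± 12.7 CPM (−8.79 ± 0.29), *Snhg11* from 2540 ± 539.9 CPM to 5.79 ± 5.65 CPM (−9.02 ± 0.32), and *Miat* had 0 UMIs, at least 166-fold lower.

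Immediate early genes, which cells switch on within minutes of a stimulus or of handling, were higher in 3 and lower in 3 of 7 tested, with a median of −1.05 beside −1.43 over all genes, of which 42.2% were lower, and with ERCC scaling 1 was higher and 4 lower. *Ier2* stood at 540.0 ± 278 CPM against 20.3 ± 5.74 CPM (log2 difference 4.28 ± 0.28), on 10 of 10 plates and without overlap. *Fosb* was lower at 8.55 ± 15.1 CPM against 47.2 ± 24.3 CPM (−3.90 ± 0.91), a call lost on the Q plates alone (−3.88, edgeR adjusted p = 0.106). The other calls were also lost under some settings. On the Q plates alone *Jun*, −1.05 over all plates, was at −0.92 (edgeR adjusted p = 0.188). There *Junb*, 0.83 over all plates, was at 0.04 (edgeR adjusted p = 0.948). *Fos* was lower by −1.47 ± 0.39, but by −0.49 on the AL and JM plates alone (edgeR adjusted p = 0.196), and *Egr1* was higher by 1.01 ± 0.27, a call lost with ERCC scaling (0.43, edgeR adjusted p = 0.185).

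Mitochondrially encoded messages went both ways. Of 13 genes, 7 were tested, with 2 higher, 4 lower and a median of −0.44, beside 10.1% of all genes higher and 42.2% lower. With ERCC scaling 0 were higher and 5 lower. *mt-Cytb* had 11083 ± 1095 CPM against 14129 ± 1622 CPM (log2 difference −0.68 ± 0.06) and *mt-Nd5* 473 ± 157 CPM against 870 ± 219 CPM (−1.23 ± 0.13), both with overlapping plates. *mt-Co1* was higher by 0.34 ± 0.12 with TMM, and with ERCC scaling it did not pass and its sign turned (−0.24, edgeR adjusted p = 0.208). Its call was also lost with DESeq2 size factors (0.25), in the DESeq2 test (0.25), without a filter (0.11) and without plate Q6 (0.30). The same held in rows A and B (0.12), in rows E and F (0.19), with Q plates only (0.44) and with the others only (0.19). The call of *mt-Nd6*, the other higher gene (1.38), was lost in the same rows (−0.50 and 1.18) and plates (1.86 and 0.94). It was also lost without a filter (1.15) and without any 1 plate other than AL6 or JM7 (1.19 to 1.43). *mt-Co2*, *mt-Co3*, *mt-Atp6*, *mt-Atp8* and *mt-Nd4l* had 0 UMIs in all 960 wells and show nothing about either group.

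The picked cells came from male mice. *Xist*, the RNA that coats the inactive X chromosome of female cells, was seen in 35 of 40 control wells at 199 ± 82.9 CPM, between 99.3 and 363 CPM by plate, and in 5 of 664 PVH cells with 5 UMIs (log2 difference 11.62 ± 0.62; edgeR adjusted p = 9.24e-11). The Y-linked genes *Ddx3y*, *Eif2s3y* and *Kdm5d* were lower in the control wells, by −3.77 ± 1.01, −4.77 ± 1.29 and −5.81 ± 1.23, and *Uty* did not pass (−2.59 ± 1.22, edgeR adjusted p = 0.0837). *Eif2s3y* was lower on 8 of 10 plates, and its call was lost on the AL and JM plates alone (−2.37, edgeR adjusted p = 0.110), as was that of *Ddx3y* on the Q plates alone (−3.75, adjusted p = 0.149) and with 4 cells per plate (−3.21, adjusted p = 0.0629). They were not absent there. *Ddx3y* had 111 UMIs in 6 control wells against 59.8% of PVH cells, *Uty* 50 UMIs in 5, *Eif2s3y* 39 UMIs in 3 and *Kdm5d* 9 UMIs in 3. *Uty* was higher in the control wells on AL5 (42.2 against 18.3 CPM), JM6 (90.7 against 23.3 CPM) and JM7 (61.9 against 25.8 CPM). On every other plate it was lower. *Eif2s3y* was higher on AL6 (58.6 against 52.0 CPM) and JM8 (64.3 against 50.7 CPM), and *Kdm5d* on AL6 (41.0 against 11.3 CPM). The fitted values of these 3 genes are thus not an even fold across plates. Thus *Xist* was in most control wells, and each of the 4 Y-linked genes in 6 or fewer of the 40.

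The profile of the control wells was then compared between batches, with the Q plates on one side and all other plates on the other. Of 5841 genes tested in the control sums, 112 (1.92%) differed at an adjusted p under 0.05 in edgeR's quasi-likelihood test, 81 higher and 31 lower on the Q plates. With library size in place of TMM the split was 51 and 52. The count also rested on single plates, with 38 higher and 18 lower without plate Q7, 52 and 19 without Q6, 56 and 19 without JM5, 50 and 21 without JM6, and 46 and 16 without JM7.

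*mt-Rnr1*, the small ribosomal RNA of mitochondria, had 11338 ± 1642 CPM in the control wells of the Q plates (SD, n = 4 plates) and 1441 ± 307 CPM in those of the other 6 plates, without overlap (log2 difference 3.13 ± 0.16; edgeR adjusted p = 3.95e-10). The PVH cells of the same plates stood at 5399 ± 472 and 964 ± 124 CPM. *Rpl41*, a very short ribosomal protein message, had 3429 ± 485 CPM on the Q plates and 862 ± 387 CPM on the others (2.15 ± 0.27), and in the PVH cells 1259 and 275 CPM. In the other direction, *Hspa8*, a constitutive chaperone, had 695 ± 211 CPM on the Q plates and 2103 ± 194 CPM on the others (−1.45 ± 0.20), and in the PVH cells 853 and 2618 CPM. *Gapdh*, a glycolytic enzyme, had 2332 ± 718 and 4771 ± 660 CPM in the control wells (−0.86 ± 0.19). The wells and cells of a plate share a library. Of the 81 genes higher on the Q plates in the control wells, 74 were also higher there in the PVH sums, and of the 31 lower genes 30 were lower. The median difference of the higher genes was 1.36 in the control wells and 1.297 in the PVH cells, and that of the lower genes −3.05 and −1.26. Over all 5841 genes tested, 3796 had the same direction in both.

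*Lgals1* was higher in the control wells of the Q plates, at 9067 ± 798 CPM against 4586 ± 1580 CPM (log2 difference 1.14 ± 0.20; edgeR adjusted p = 0.00336), while in the PVH cells it stood at 3.28 and 6.15 CPM. *S100a6*, a calcium-binding protein, had 2132 ± 199 CPM against 725 ± 316 CPM in the control wells (1.72 ± 0.27) and 0.165 and 0.242 CPM in the PVH cells. *Igkc* differed less, at 13956 ± 1845 CPM against 10429.5 ± 840 CPM (0.59 ± 0.12; edgeR adjusted p = 0.0120), and *Spp1* did not pass (−0.47 ± 0.16; edgeR adjusted p = 0.168). Among the 76 cytosolic ribosomal protein genes, 30 were higher and 4 lower on the Q plates, with a median of 0.73 beside 0.03 over all genes. With library size alone these were 21 and 5.

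**Figure D5:**
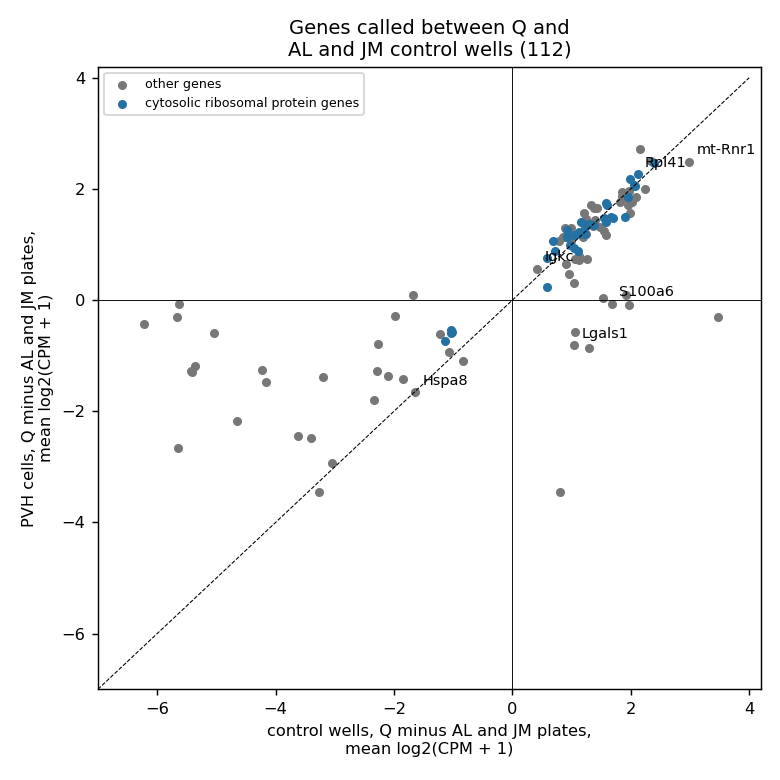
Difference in mean log2(CPM + 1), Q plates minus AL and JM plates, in the control wells (horizontal axis) and in the PVH cells (vertical axis), for the 112 genes called between these control wells, with ribosomal protein genes in colour and a dashed line of equal difference. *mt-Rnr1*, *Rpl41* and *Hspa8* lay near the line, while *Lgals1* and *S100a6* lay at or below 0 in the PVH cells.

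The difference between control wells and PVH cells was also tested against the batch in a single model. For 0 of 13060 genes did it differ between the Q plates and the others in edgeR's quasi-likelihood test, where 721 genes had an unadjusted p under 0.05, and DESeq2 called 188. Leaving out plate AL5 or plate JM6 gave 1 gene. Batch and depth go together on these plates, since the control wells held 144742 to 312891 gene UMIs on the Q plates, 35402 to 102696 on the AL plates and 36635 to 109194 on the JM plates, and they cannot be told apart.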

How the data were processed

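RNA was measured by smart-SCRB in 10 plates of 96 wells. The deposited tables hold unnormalized UMI counts of 48397 genes and of 92 ERCC spike-ins in each well, made by the authors with Trimmomatic 0.36, STAR 2.5.3a and GRCm38.p5 per the labels, whose other steps are not given in the sources used here. The authors' table of kept cells gave clusters and batches (unit other, not tested). Its totals equal the counts after subtraction of the mean + 2 SD, rounded up, of rows C, D, G and H of the control column in all 706 cells. Subtraction was an alternative here.

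UMIs of control wells and of PVH cells were summed per plate and tested with edgeR 4.0.16 in R 4.3.3 (TMM, filterByExpr, robust quasi-likelihood, plate as a block, Benjamini-Hochberg over all genes tested, threshold 0.05). Both sums of a plate came from the same library, which makes the pairs. Well measures were compared with exact two-sided sign-flip tests over plates. DESeq2 1.42.0, other scalings, filters, rows, cells and batches, and leaving out each plate were alternatives. Python 3.11.15 and scipy 1.17.1 did the rest, on scripts tested on simulated data. Levels are CPM of the plate sums, and log2 differences per well measure used a pseudocount of 1 UMI where stated. A control well held at least 35402 gene UMIs.

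Members and gene lists were chosen with earlier results of these data known. Named genes were the 3 markers, the genes used to label PVH neurons, the 5 largest fitted differences in each direction (same direction on all 10 plates, at least 100 CPM), and up to 3 genes per list by size among those that passed with 1 direction on all plates. Others named beside them were chosen after their values were seen.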

Additional observations from a re-analysis of the deposited data

Results flagged for a closer look

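The values of 113 groups of 4 or 10 plates or wells were screened for a single value far from the rest, and 7 stood apart. Chance alone sets apart about 1 in 20 such groups. The plate values below are differences of log2(CPM + 1), control wells minus PVH cells.

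*Avp* differed by −10.36 on plate JM6 and by −8.51 to −6.81 on the other plates. *Sst* differed by −0.43 on plate AL6, where the PVH cells held 2 *Sst* UMIs, and by −9.30 to −6.01 elsewhere. *Meg3* differed by −12.50 on plate JM7, where the control wells held 0 UMIs, and by −9.33 to −7.13 elsewhere. *Col3a1* differed by 8.24 on plate Q7 and by 9.05 to 9.73 elsewhere. *Ighg2b* differed by 8.91 on plate AL5 and by 9.90 to 10.93 elsewhere. *Kdm5d* was higher in the control wells on plate AL6 only, by 1.77 with 7 UMIs (41.0 CPM), and differed by −5.51 to −3.18 elsewhere. On plate Q6, control well E06 held 56993 ERCC UMIs and the other control wells 45971 to 47702.

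A test of the difference between batches set apart the UMIs of *Igkc*, *Lgals1* and *Spp1* in the control wells over the other rows of their columns, with a log2 difference of 12.05 on the Q plates and 10.43 on the AL and JM plates (exact permutation test, adjusted p = 0.0190). The other rows held 0 to 3 such UMIs per plate, so this difference rests on the UMIs of the control wells and the added 1. The control wells of the Q plates held more UMIs of all genes (plate medians 169752.5 to 257704.5 against 41892 to 91897.5). In CPM, *Igkc* and *Lgals1* were higher in the control wells of the Q plates and *Spp1* did not pass. The measure does not separate depth from the share of these genes, and the cause was not tested.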

How the results depend on the processing

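Against the PVH cells, 1027 genes were higher and 4268 lower. The higher count was 677 with ERCC scaling, 442 in rows A and B, 553 in rows E and F and 653 on the Q plates. Without a filter it was 1794 higher and 6833 lower, and with 4 cells per plate 1061 were lower. Without the replicate block that pairs the sums of a plate, 1388 were higher and 3067 lower. Leaving out single plates gave 958 to 1025 higher and 3940 to 4220 lower. Between batches, library size gave 51 higher and 52 lower, the DESeq2 test 156 and 218, and single plates left out 38 to 82 and 16 to 29. For the interaction, DESeq2 gave 61 and 127, and single plates left out 0 to 1 and 0.

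On the Q plates alone, where 4 plates allow no p below 0.125, the differences from PVH cells were −0.31 (gene UMIs), 0.39 (ERCC), −0.81 (their ratio), −280 genes and −0.25 percentage points. In rows A and B the ERCC difference was 0.21. With single plates left out, these ranged from −0.48 to −0.38, 0.28 to 0.36, −0.93 to −0.82, −441 to −377 and −0.26 to −0.20. Against the other rows, gene UMIs differed by 8.96 on Q and 9.21 on AL and JM plates, and the markers by 12.05 and 10.43. None passed after adjustment (exact sign-flip test, adjusted p = 0.167 on Q and 0.0625 on AL and JM plates). The smallest unadjusted p that 4 and 6 plates allow is 0.125 and 0.03125, so the lack of a pass decides nothing. With single plates left out, gene UMIs ranged from 9.01 to 9.22, markers from 10.89 to 11.19, ERCC from −0.0066 (without AL6) to 0.077, and neuropeptides from 0.47 to 0.73. Neuropeptides passed without JM5 (0.73), without JM6 (0.72) and with the wells without UMIs kept (0.71).

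With ERCC scaling *mt-Co1* (−0.24), *mt-Rnr1* (−0.14) and *mt-Rnr2* (−0.33) turned in sign, as did *mt-Rnr2* in rows A and B (−0.0152), and of these 4 values that of *mt-Rnr2* with ERCC scaling alone passed (edgeR adjusted p = 0.0290). The cause was not tested. Of 1056 values of named genes under other settings, 1005 kept direction and call.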
